A study of Arabidopsis thaliana with 16 samples.

Results

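The comparison described here sets wild-type Arabidopsis thaliana seeds given abscisic acid (ABA) during germination against control seeds. It takes 8 of the 16 wild-type libraries analysed here, chosen by their labels: the 4 that received ABA and nothing else and the 4 controls. The other 8 libraries received glucose, alone or with ABA. They entered the filter of genes to test, the scaling between libraries and the estimate of the spread within groups. All seeds were of the Col-0 strain and carried no transgene or mutation named in the labels. They were imbibed in the cold at 4 °C for 3 days, sown on ½ MS (Murashige and Skoog) medium at 22 °C in constant light, and moved at 24 h after imbibition to liquid medium for 6 h. ABA seeds had 5 µM ABA in that medium. The labels name no added compound for the controls, and they do not say whether the controls were also moved to liquid. RNA came from whole seeds at 30 h after imbibition, so embryo, endosperm and seed coat were measured together, and a smaller share of a cell type cannot be told apart from less RNA per cell. The labels call the 4 libraries of each group biological replicates without saying what separated them, so the p-values below measure the spread between these libraries.

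ABA is the hormone that holds seeds in dormancy and slows germination. It binds receptors of the PYR/PYL family, which then block clade A protein phosphatases 2C, and this frees SnRK2 kinases to activate group A bZIP factors such as ABI5. Those factors bind the ABA-responsive element, a short promoter sequence with ACGTG at its core, in genes of late seed maturation and desiccation tolerance. Germination itself turns these genes off and turns on genes that loosen cell walls, mobilise the oil reserve and build the photosynthetic apparatus.

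The deposited estimated counts summed to between 9432451 and 13532720 per control library and between 9360552 and 17794702 per ABA library. Of 27655 genes in the table, 17083 were high enough to be tested. Levels below are in CPM, counts scaled to library size with edgeR's TMM factors. They compare libraries within a gene and are not divided by gene length. The label of germinating seeds could be checked against known markers: isocitrate lyase (ICL), which opens the glyoxylate cycle that turns stored oil into sugar, stood at 23380, 23040, 24870 and 23420 CPM in control replicates 1 to 4 and at 23470, 24760, 23000 and 22600 CPM in ABA replicates 1 to 4, the order in which values are given throughout. ABA replicate 3 stood apart from the other ABA libraries before any test. Over the 11286 genes of at least 10 CPM, its log2 levels differed from the mean of the other 3 ABA libraries with an SD of 0.324, against 0.145 to 0.174 for the other ABA libraries and 0.127 to 0.219 for the controls. It lay nonetheless on the ABA side of the comparison: on the first principal component of the 8 libraries, which carried 66.3% of the variance, all 4 ABA libraries lay on one side and all 4 controls on the other. The second component, with 12.5%, held ABA replicate 3 at 38.1 and the other ABA libraries between -17.6 and -8.12.

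ABA changed the level of many genes by a small amount and of fewer genes by a large one. By edgeR's quasi-likelihood test with Benjamini-Hochberg adjustment, 2749 genes (16.1% of those tested) were called higher with ABA and 3075 (18%) lower, at an adjusted p under 0.05. Of the 5824 called genes 47.2% were higher. With upper-quartile scaling, which shifted the median of all genes by -0.053 on the log2 scale, that share was 34.9%, so the balance of small changes depends on the scaling. At 2-fold or more, 461 genes (2.7%) were higher and 569 (3.33%) lower. The large rises outnumbered the large falls, with 122 genes called at least 8-fold higher and 13 at least 8-fold lower. The 461 genes together took 0.72% to 0.834% of all counts in the control libraries and 4.46% to 5.38% in the ABA libraries, highest in ABA replicate 3. The 569 genes went from 1.2% to 1.28% of counts in controls to 0.487% to 0.503% with ABA. Lists of named pathways and families held 28.6% of the genes called at least 2-fold higher and 30.2% of those at least 2-fold lower, against 13.8% of all genes tested. Below, "rose" and "fell" are used only of genes called by that test. List counts read against the 16.1% higher and 18% lower of all genes, whose median log2 fold change was 0.00.

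**Figure D1:**
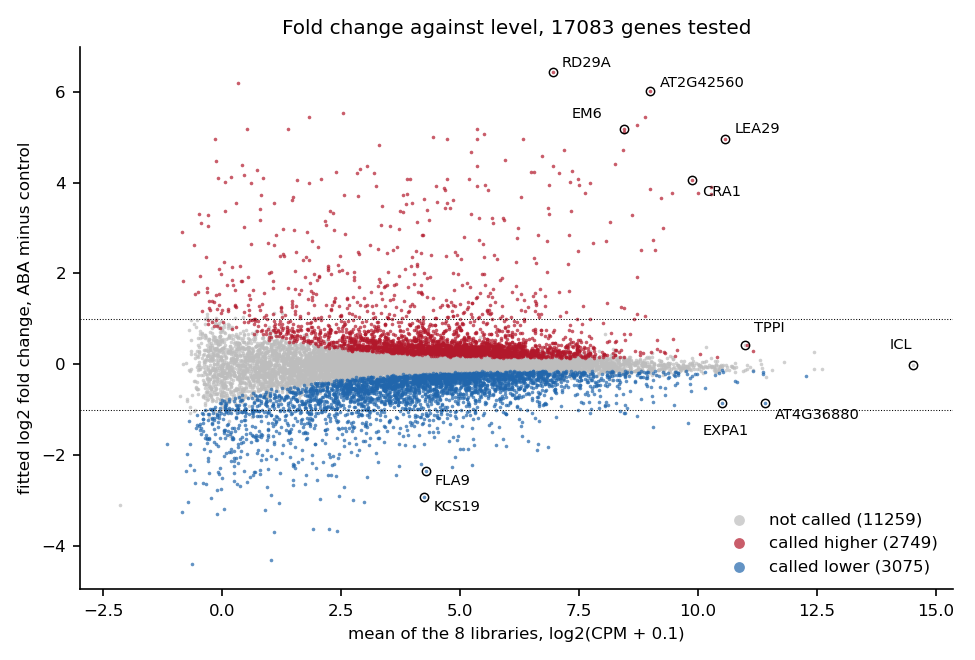
Fitted log2 fold change (ABA minus control) of the 17083 tested genes against their mean level over the 8 libraries, as log2(CPM + 0.1). Red points were called higher and blue points lower at an adjusted p under 0.05; the labelled genes are described in the text. The rises of RD29A, AT2G42560 and LEA29 reach above 4, while the falls that pass -4 are of genes at low levels.

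Among called genes whose groups did not overlap and whose higher group averaged at least 10 CPM, the 12 largest rises held 5 genes of the list of LEA (late embryogenesis abundant) proteins and dehydrins, hydrophilic proteins of drying seeds, and 2 of the list of other classic ABA markers. RD29A, a hydrophilic protein gene long used as a reporter of drought, cold and ABA, was at 3.44, 2.58, 3.04 and 1.8 CPM in controls and 247, 246, 255 and 224 CPM with ABA. All 4 ABA libraries were far above all controls and close to each other: the lowest ABA library was 65.1-fold above the highest control. The fitted log2 fold change was 6.44 ± 0.13 (SE; edgeR adjusted p = 5.96e-20). Its neighbour on chromosome 5, RD29B, was at 23.6, 17.4, 17.8 and 18.2 CPM in controls and 679, 620.4, 757 and 635 CPM with ABA. The groups were again widely apart, and the fitted log2 change was 5.12 ± 0.121. AT2G42560, which encodes a LEA protein, was at 19.1, 13.2, 16.4 and 13.1 CPM in controls and 939, 804, 1357 and 913 CPM with ABA. ABA replicate 3 was the highest of the 4, yet the log2 change of 6.01 ± 0.15 was 5.83 without it. Another LEA gene, AT3G53040, was at 25.7, 21.4, 21.8 and 15.4 CPM in controls and 686, 667, 1253 and 674 CPM with ABA, and its log2 change of 5.27 became 4.99 without ABA replicate 3.

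Both Em genes, which encode the small group 1 LEA proteins of dry seeds and are classic targets of ABI5, both rose. EM1 was at 25.8, 18, 22.1 and 18 CPM in controls and 873, 815, 1121 and 862 CPM with ABA, a log2 change of 5.44 ± 0.136. EM6 was at 23.4, 16.6, 19.5 and 14.6 CPM in controls and 702, 661, 733 and 609.9 CPM with ABA, a log2 change of 5.18 ± 0.115. In both genes the 4 ABA libraries were far above the 4 controls, with the closest libraries 31.6-fold apart for EM1 and 26.1-fold for EM6. AT4G39130, a dehydrin, was at 0.224, 0, 0.518 and 0.106 CPM in controls and 10, 9.59, 13.9 and 11.1 CPM with ABA. Its controls were close to no reads, so its log2 change of 5.54 ± 0.357 is less certain than that of the abundant genes. The other 5 of the 12 largest rises were of NADP-ME1, a cytosolic malic enzyme (5.18), AT5G01300, a phosphatidylethanolamine-binding family protein (5.06), CBSX4, a CBS-domain protein (4.96), and the uncharacterised AT4G31830 (4.99) and AT3G15280 (4.96). AT5G01300 overlaps AT5G01290 on the opposite strand by 87 bases, and the sources used here do not say whether counting used the strand.

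**Figure D2:**
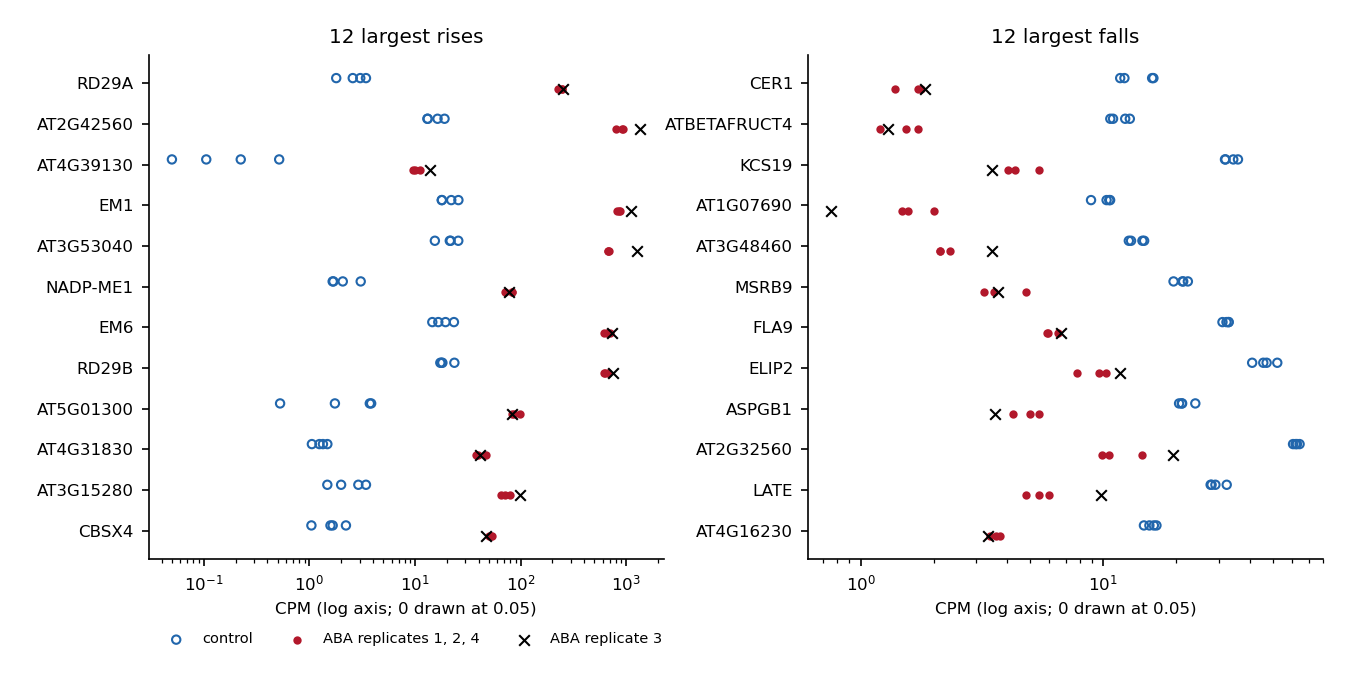
CPM on a log axis of the genes with the 12 largest rises and 12 largest falls named in the text, 1 point per library, with open circles for control and filled circles for ABA libraries and a cross for ABA replicate 3. In each of the 24 genes the 4 ABA libraries lie wholly above or wholly below the 4 controls, as the rule that chose them requires.

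The promoters of these genes can be read directly. The sequences below are the 200 bases before the RefSeq gene start (TAIR10.1 assembly), written 5′ to 3′ along the gene, for 6 of the most strongly raised genes and, for contrast, 2 of the most strongly lowered. Capitals mark ACGTG, the core of the ABA-responsive element, and ACCGAC, the core of the drought-responsive element that DREB factors bind, each on either strand (CACGT is ACGTG read from the other strand). CACGTG is its own reverse complement and so holds ACGTG on both strands.
RD29A (chr5:21240517-21240716, plus strand): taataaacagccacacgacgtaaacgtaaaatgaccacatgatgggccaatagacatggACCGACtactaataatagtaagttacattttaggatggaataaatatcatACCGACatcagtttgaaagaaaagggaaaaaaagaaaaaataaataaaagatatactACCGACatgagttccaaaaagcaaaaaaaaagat
RD29B (chr5:21236821-21237020, plus strand): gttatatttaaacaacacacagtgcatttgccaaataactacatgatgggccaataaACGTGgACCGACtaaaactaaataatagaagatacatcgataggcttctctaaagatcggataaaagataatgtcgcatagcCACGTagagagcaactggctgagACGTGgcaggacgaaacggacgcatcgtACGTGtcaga
EM1 (chr3:19214522-19214721, plus strand): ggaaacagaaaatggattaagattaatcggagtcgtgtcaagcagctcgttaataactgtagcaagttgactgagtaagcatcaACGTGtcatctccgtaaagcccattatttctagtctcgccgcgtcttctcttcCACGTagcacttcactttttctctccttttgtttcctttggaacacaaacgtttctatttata
EM6 (chr2:16780369-16780568, minus strand): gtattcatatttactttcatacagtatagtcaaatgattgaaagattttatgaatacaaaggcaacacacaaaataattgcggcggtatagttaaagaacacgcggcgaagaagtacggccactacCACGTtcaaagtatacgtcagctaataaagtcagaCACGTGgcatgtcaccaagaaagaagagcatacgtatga
AT2G42560 (chr2:17716913-17717112, minus strand): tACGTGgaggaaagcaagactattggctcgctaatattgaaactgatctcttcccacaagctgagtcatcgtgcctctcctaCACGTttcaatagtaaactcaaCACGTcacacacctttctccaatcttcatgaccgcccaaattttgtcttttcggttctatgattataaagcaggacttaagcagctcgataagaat
AT3G53040 (chr3:19666498-19666697, minus strand): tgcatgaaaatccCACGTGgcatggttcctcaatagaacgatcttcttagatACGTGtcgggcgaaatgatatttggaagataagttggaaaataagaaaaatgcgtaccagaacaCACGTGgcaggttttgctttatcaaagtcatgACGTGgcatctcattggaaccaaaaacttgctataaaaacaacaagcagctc
KCS19 (chr5:1293724-1293923, minus strand): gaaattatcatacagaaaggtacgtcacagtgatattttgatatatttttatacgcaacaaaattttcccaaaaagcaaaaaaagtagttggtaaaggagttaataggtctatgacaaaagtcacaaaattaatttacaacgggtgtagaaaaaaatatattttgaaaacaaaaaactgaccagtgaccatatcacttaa
FLA9 (chr1:983545-983744, minus strand): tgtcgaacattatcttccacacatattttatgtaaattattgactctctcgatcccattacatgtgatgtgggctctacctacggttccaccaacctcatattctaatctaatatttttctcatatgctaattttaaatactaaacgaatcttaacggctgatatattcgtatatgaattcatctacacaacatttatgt
AT3G53040 held 6 ACGTG matches in its 200 bases, RD29B 4, EM6 and AT2G42560 3 each and EM1 2. RD29A held none there but 3 of ACCGAC, and its nearest ACGTG began 69 bases after the RefSeq start. KCS19 and FLA9, whose levels fell, held neither motif in these bases. The genes shown were not the first by rank. In the wider window described below, AT4G39130 and NADP-ME1, not shown though they rose more than RD29B, held 2 and 1 ACGTG matches. Among the 12 largest falls, CER1, the largest, and MSRB9 held 1 each and the others 0. A match is a description of the sequence, and an empty window says only that these letters are not in it.

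Across the genome, ACGTG became more frequent with the size of the rise. A window from 250 bases before to 50 bases after the RefSeq start could be read for 16970 of the 17083 tested genes (99.3%), and ACGTG on either strand was in 27.7% of them. It was in 24.7% of the 11173 genes not called. Among called rises, the share was 34% under 2-fold, 50.4% between 2-fold and 4-fold, 70.6% between 4-fold and 8-fold, and 85.2% (104 of 122 genes) at 8-fold or more. Among falls of 2-fold or more it was 29.6%. The longer form ACGTGNC followed the same order, from 10.1% of genes not called to 67.2% of genes raised at least 8-fold, with 8.27% of the strong falls and 12.3% of all genes. CACGTG, the G-box, which contains ACGTG, was in 9.46% of all windows and in 49.2% of those of genes raised at least 8-fold. ACCGAC rose less steeply, from 6.67% of all windows to 13.9% of those of the genes raised at least 8-fold. Base composition moved with the same groups: the mean GC content of the windows was 32.5% for genes not called, 36.3% for genes raised at least 8-fold and 30.3% for genes lowered at least 2-fold, and its part in the motif shares was not tested. The matches crowded near the start. In the 461 genes raised at least 2-fold, the bin from 100 to 51 bases before the start held 56 ACGTG matches per 100 genes, against 9.66 in genes not called. From 1000 to 951 bases before the start, the same numbers were 5.64 and 4.38. Of the 12 genes with the largest rises 11 held ACGTG in the window. The exception was RD29A, whose nearest match, 69 bases after the RefSeq start, lies just past the window's end. Whether transcription begins at the RefSeq start was not tested. Of the 12 with the largest falls 2 held ACGTG, CER1 and MSRB9.

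**Figure D3:**
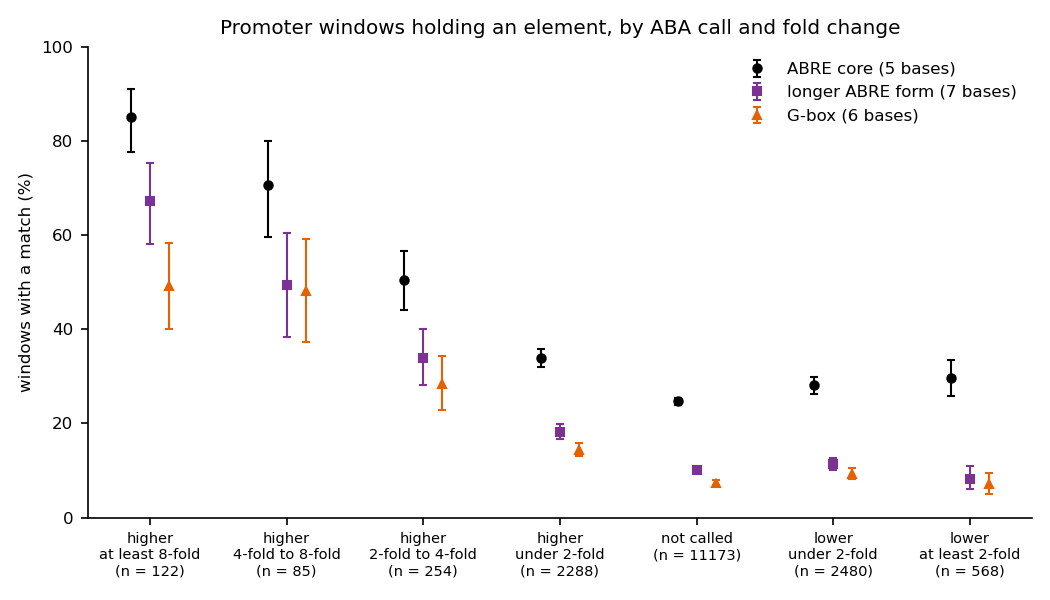
Percent of genes with each motif in the window from 250 bases before to 50 bases after the RefSeq start, by direction and size of the change. Circles are ACGTG, squares ACGTGNC and triangles CACGTG, bars are 95% exact binomial intervals over genes, which cover counting error only, and n is the number of genes. The share with the 5-base core goes from 24.7% of genes not called to 85.2% of genes raised at least 8-fold.

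Of 48 LEA and dehydrin genes tested, 36 rose and 8 fell, with a median log2 change of 2.92. LEA29, the most abundant, was at 106, 80.6, 109 and 83.1 CPM in controls and 2861, 2705, 3498 and 2672 CPM with ABA, with ABA replicate 3 again highest. RAB18 (AT5G66400), a dehydrin used as an ABA marker, had a log2 change of 3.85. The 8 that fell were AT5G60520 (-4.31) and AT5G60530 (-3.69), neighbouring genes on chromosome 5 at under 4 CPM in controls, and the smaller falls of AT2G41990, AT2G03850, AT5G42860, AT4G38410, ERD10 and AT2G46140. With at least 10 counts asked of all 8 libraries, which leaves fewer low genes in the test, 4 LEA genes were called lower. The summed level of the list was 2480 ± 366 CPM (SD, n = 4) in controls and 23600 ± 4140 CPM with ABA, with 29600 CPM in ABA replicate 3.

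Oleosins and caleosins, the proteins that coat oil bodies, rose in 12 of 13 genes tested and fell in none, with a median log2 change of 2.49. OLEO2 was at 12.2, 9.73, 12.7 and 7.29 CPM in controls and 305, 277, 263 and 271 CPM with ABA, and OLEO1 at 22.4, 18.4, 23.6 and 14.7 CPM in controls and 343, 309.5, 379 and 320.1 CPM with ABA. The groups did not overlap, with the closest libraries 20.6-fold apart for OLEO2 and 13.1-fold for OLEO1. The exception was the caleosin CLO4, at -0.48 and not called. Of 9 seed storage proteins tested 4 rose and 1 fell, with a median of 0.14. CRA1, a 12S globulin of the protein bodies, was at 112, 102, 108 and 104 CPM in controls and 1736, 1895, 1574 and 1874 CPM with ABA and rose by 4.05 on the log2 scale, and CRU3, of the same family, rose by 1.27. SESA3, a 2S albumin, fell by 0.60. Among 24 other classic ABA markers 17 rose and 3 fell, with a median of 0.90. The 3 that fell were ATHB12, a homeodomain factor (-0.51), P5CS1, the first enzyme of proline synthesis (-0.47), and HB5, another homeodomain factor (-0.35). RD22, a dehydration marker of leaves, was at 0.28 and not called.

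**Figure D4:**
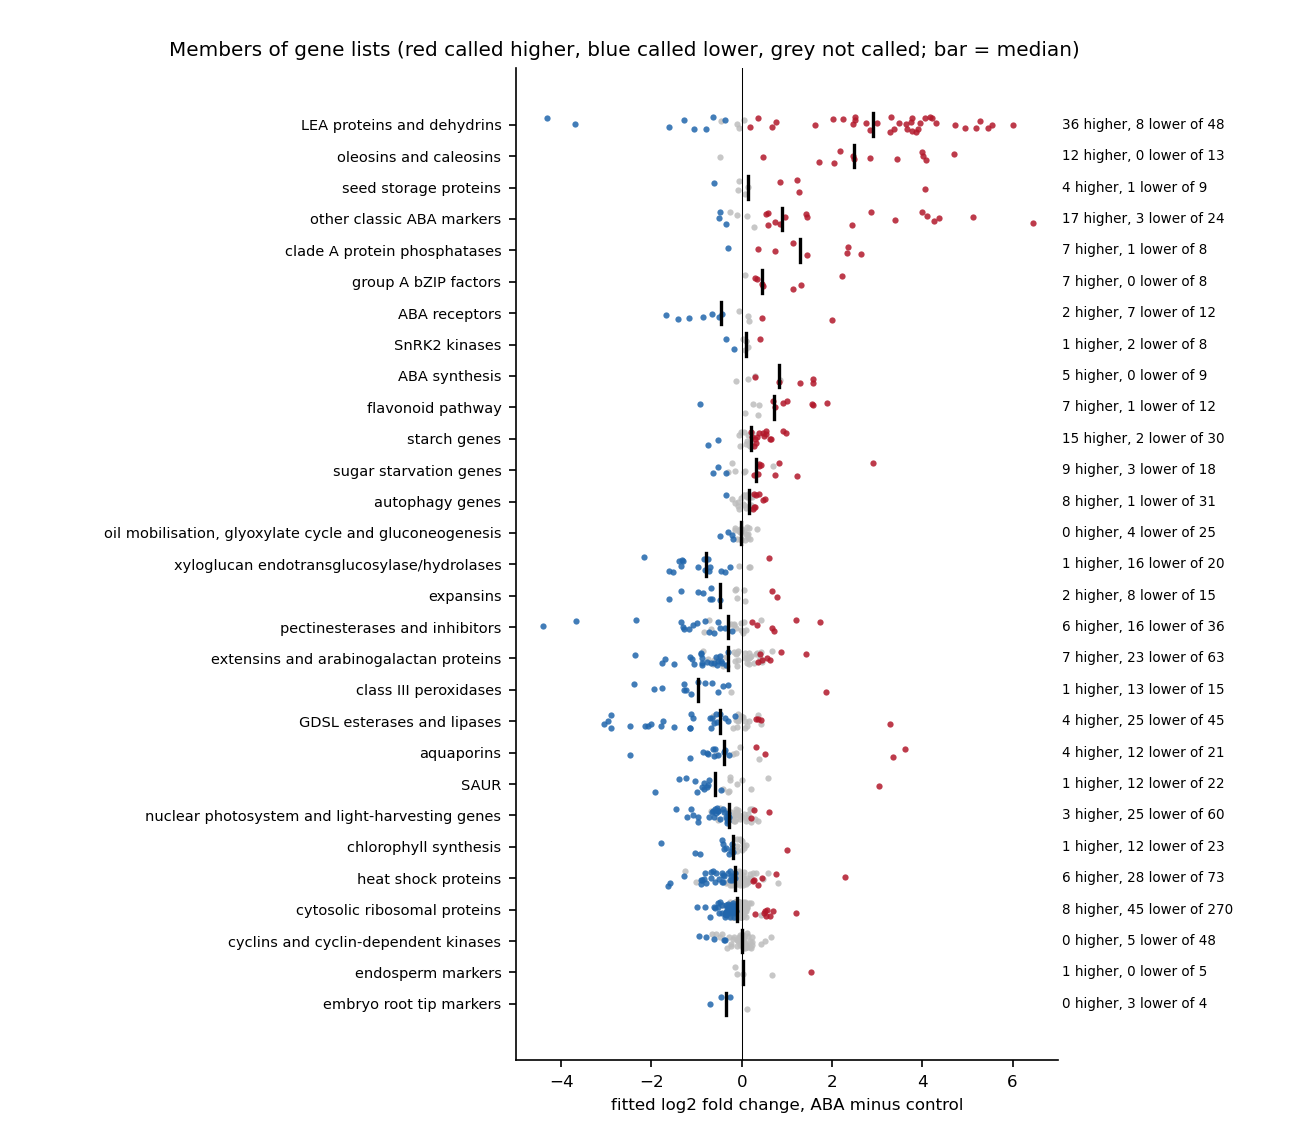
Fitted log2 fold change of every tested member of 29 gene lists, 1 point per gene, red where called higher, blue where called lower and grey where not called, with a black bar at the median. LEA proteins and oleosins lie far to the right, and xyloglucan endotransglucosylases, class III peroxidases and SAUR genes mostly to the left of 0.

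In the core pathway more receptors fell than rose, and more of their phosphatase partners rose than fell. Of 12 receptors tested 7 fell and 2 rose, with a median log2 change of -0.47. PYR1, the most abundant, was at 498, 373, 409.5 and 387 CPM in controls and 239, 232, 359 and 229 CPM with ABA, every ABA library below every control. PYL6 fell most, by 1.67 on the log2 scale, followed by PYL1 (by 1.41), PYL4 (by 1.17) and PYL5 (by 0.86), and PYL2 and PYL8 fell less. PYL13 rose by 1.99 but only to 5.92 CPM, and PYL11 by 0.44. PYL11 was at 5.75, 4.24, 4.14 and 5.29 CPM in controls and 6.17, 5.07, 9.31 and 6.2 CPM with ABA, its groups overlapped, and without ABA replicate 3 its log2 change was 0.28 (edgeR adjusted p = 0.164), so that PYL13 was then the only receptor called higher. Its call also ended without control replicate 2, control replicate 3 or ABA replicate 1. PYL7, PYL9 and PYL12 were not called. Of 8 clade A phosphatases, which hold the pathway off until a receptor with ABA binds them, 7 rose and 1 fell, with a median of 1.29. HAI3 was at 14.2, 14, 11.6 and 8.98 CPM in controls and 83.4, 76.5, 68.4 and 78.6 CPM with ABA, a log2 change of 2.64. AHG1, a phosphatase of seeds, was at 41.2, 27.1, 26.8 and 28.1 CPM in controls and 156, 151, 169.6 and 152 CPM with ABA, a log2 change of 2.34. HAI2 rose by 2.33, ABI2 by 1.45, HAB1 by 1.13, PP2CA by 0.74 and HAB2 by 0.37, and ABI1 fell by 0.30. Another member of the clade, AT5G59220, was too low to be tested.

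Of 8 SnRK2 kinases tested 1 rose and 2 fell, with a median of 0.09. SNRK2.2 (from 126 ± 7.45 to 138 ± 3.51 CPM) and SNRK2.6 (log2 change 0.09), both central to ABA signalling, were not called, and SNRK2.3 fell by 0.18. Of 8 group A bZIP factors 7 rose and none fell, with a median of 0.46. ABI5, the factor that arrests germination and early seedling growth, was at 60.9, 53.2, 50.9 and 52.4 CPM in controls and 245, 236, 303 and 226 CPM with ABA, a log2 change of 2.21 ± 0.0879. The lowest ABA library was 3.71-fold above the highest control. EEL, which binds the same targets as ABI5, rose by 1.30, ABF4 by 1.14, ABF3 by 0.47, ABF2 by 0.45, GBF4 by 0.34 and AREB3 by 0.29, while ABF1 was not called (0.08).

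Among regulators of seed maturation and dormancy, 3 of 11 rose and 2 fell. SOM, a zinc finger protein that represses germination in the dark, was at 262, 252, 275 and 273 CPM in controls and 590, 633, 511 and 551 CPM with ABA. MFT, a phosphatidylethanolamine-binding protein of seed ABA signalling, rose by 3.16 from 0.832 ± 0.546 to 7.83 ± 1.08 CPM. ABI3, the B3-domain factor of the maturation programme, rose by 0.68 from 221 ± 26.3 to 355 ± 79.5 CPM. ABI4, an AP2 factor that also mediates the response of seeds to ABA and sugar, fell by 0.46 from 194 ± 4.89 to 141 ± 20.6 CPM, and WRKY2 fell by 0.44. Without ABA replicate 3, 3 of these genes were called higher and 3 lower, with PIF1 among the lower and WRKY2 no longer called.

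Of 9 ABA synthesis genes 5 rose and none fell, with a median of 0.82. ABA1, the zeaxanthin epoxidase at the entry of the pathway, was at 25.3, 23.5, 25 and 25.1 CPM in controls and 76.6, 68.7, 74.8 and 75.2 CPM with ABA. NCED9, a carotenoid-cleaving dioxygenase of seeds, rose by 1.58 from 4.25 ± 0.446 to 12.9 ± 0.401 CPM. Among 8 genes of ABA breakdown, conjugation and transport 3 rose and 3 fell, with a median of -0.11. CYP707A2, the hydroxylase that lowers ABA in imbibed seeds, was at 5.9, 6.15, 5.26 and 4.65 CPM in controls and 16.1, 17.6, 22 and 18.7 CPM with ABA. CYP707A1, of the same family, was at 20.7, 20, 18.5 and 19.9 CPM in controls and 58.9, 50.9, 43.3 and 51.6 CPM with ABA. Neither gene had overlapping groups. ABCG25, an ABA exporter, rose by 0.62, ABCG30, an importer, fell by 0.72, and UGT71C5, which joins glucose to ABA, fell by 0.46.

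Of 25 sucrose carriers, invertases and sucrose synthases 8 rose and 9 fell. SPS3F, a sucrose-phosphate synthase, was at 9.19, 9.06, 9.85 and 11.6 CPM in controls and 92.7, 95.8, 84.2 and 95.3 CPM with ABA, a log2 change of 3.22. SUS3, a sucrose synthase of maturing seeds, was at 18.5, 18, 17.2 and 19 CPM in controls and 98, 93.6, 67.2 and 103 CPM with ABA. On the other side, ATBETAFRUCT4, the vacuolar invertase that splits sucrose, was at 12.8, 12.3, 11 and 10.7 CPM in controls and 1.54, 1.2, 1.3 and 1.73 CPM with ABA, a log2 change of -2.99. SUS4, a sucrose synthase known from hypoxia, fell by 1.31, and SUC1, a sucrose importer, from 344 ± 26.9 to 182 ± 19.5 CPM. The raffinose family, sugars of desiccation-tolerant seeds, had 5 of 10 genes higher and 5 lower. GolS2, a galactinol synthase, rose by 4.07 and STS, a stachyose synthase, by 3.38, both from under 1 CPM. DIN10, a raffinose synthase family gene that carries most of the list's counts in controls, was at 1068, 1279, 1312 and 1357 CPM in controls and 497, 518, 517 and 506 CPM with ABA. It was lower in every ABA library, a log2 change of -1.30. AGAL2, an alpha-galactosidase, fell by 0.75.

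Of 30 starch genes 15 rose and 2 fell, by small amounts, with a median of 0.21. AMY3, a plastid alpha-amylase, rose by 0.92, and BMY3 fell by 0.74. Trehalose-phosphate phosphatases rose most among 13 trehalose genes (6 higher, 4 lower), TPPF by 4.10 from 0.18 ± 0.135 to 3.25 ± 1.1 CPM and TPPG by 1.73 from 4.42 ± 1.23 to 14.8 ± 1.54 CPM. Of 18 sugar starvation genes 9 rose and 3 fell, with a median of 0.32. ASN1, an asparagine synthetase, rose by 2.91 from 0.759 ± 0.403 to 5.89 ± 1.22 CPM, and EXL2 by 1.23 from 207 ± 14.4 to 486 ± 46.9 CPM. Autophagy genes gave 8 higher and 1 lower of 31, all under 2-fold, and 4 higher with upper-quartile scaling. Without control replicate 3, control replicate 4 or ABA replicate 1, 5 of them were higher.

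Of 25 genes of oil mobilisation, the glyoxylate cycle and gluconeogenesis none rose and 4 fell, with a median log2 change of -0.01. The ICL values given above overlapped between the groups. The falls were small and included PPDK, which feeds gluconeogenesis from pyruvate, by 0.49 and SDP1, the lipase that starts oil breakdown, by 0.30. Without ABA replicate 3, 5 genes of this list were called higher and 4 lower. Of 12 flavonoid genes 7 rose and 1 fell, with a median of 0.71. TT5, chalcone isomerase, rose by 1.88 from 4.13 ± 0.799 to 15.2 ± 1.34 CPM, F3H, the next hydroxylase of the pathway, by 0.73, and PAL3 fell by 0.91. Among 47 nitrate and ammonium genes 8 rose and 13 fell, with GLN1;5, a cytosolic glutamine synthetase, at 2.99, 3.24, 2.89 and 2.43 CPM in controls and 23.1, 22.9, 25.3 and 21 CPM with ABA. Nitrate reductase NIA1 rose slightly (0.32) from 274 ± 14.2 to 342 ± 14.5 CPM.

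Genes of the vacuole changed in both directions. Of 38 cysteine proteinases and vacuolar processing enzymes 5 rose and 12 fell. RD19D, a papain-like proteinase, was at 78.5, 67.3, 71.5 and 63.2 CPM in controls and 474, 461, 477 and 444 CPM with ABA. BETA-VPE, which processes storage proteins in seeds, rose by 1.35 from 152 ± 7.21 to 389.7 ± 14.9 CPM. RD21B, another papain-like proteinase, was at 169.8, 181, 176 and 185 CPM in controls and 51.9, 50.4, 48.2 and 49.6 CPM with ABA, a log2 change of -1.83. AT4G36880 (CP1), the most abundant of the list, fell from 3501 ± 162 to 1925 ± 292 CPM. Of 21 aquaporins 4 rose and 12 fell, with a median of -0.39. Both seed-type tonoplast aquaporins rose, TIP3;1 from 4.23 ± 1.41 to 53.2 ± 9.6 CPM and BETA-TIP from 2.4 ± 0.869 to 25 ± 4.2 CPM. GAMMA-TIP, the tonoplast aquaporin of growing vegetative cells, fell by 2.48 from 2.34 ± 1.44 to 0.434 ± 0.0863 CPM. PIP3, the most abundant plasma membrane member, fell by 0.39 from 369 ± 5.52 to 282 ± 16.7 CPM.

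By the same rule, the 12 largest falls were of genes of varied function, among them a wax, a fatty acid elongation and a cell wall gene. CER1, which makes the alkanes of cuticular wax, was at 11.7, 15.9, 12.2 and 16.1 CPM in controls and 1.77, 1.38, 1.84 and 1.73 CPM with ABA, and its log2 change of -3.03 ± 0.187 was the largest fall of the 12 (edgeR adjusted p = 9.48e-12). KCS19, of the family that elongates very long fatty acids, was at 31.7, 31.8, 34.3 and 35.8 CPM in controls and 4.34, 4.06, 3.46 and 5.41 CPM with ABA, a log2 change of -2.93. In neither gene did the groups overlap, and the closest libraries were 6.37-fold apart for CER1 and 5.85-fold for KCS19. FLA9, a fasciclin-like arabinogalactan protein of the wall, was at 32.8, 30.9, 32.1 and 32.8 CPM in controls and 6.51, 5.9, 6.71 and 5.88 CPM with ABA, a log2 change of -2.36. ELIP2, an early light-induced protein that protects developing chloroplasts, was at 52, 41, 47 and 45.5 CPM in controls and 9.6, 10.2, 11.7 and 7.76 CPM with ABA, a log2 change of -2.26. The groups of both genes lay far apart, with little spread within each. The others were the vacuolar invertase given above, AT1G07690 (-2.71), the GDSL lipases AT3G48460 (-2.48) and AT4G16230 (-2.15), MSRB9, a methionine sulfoxide reductase (-2.43), ASPGB1, an asparaginase (-2.23), the F-box protein AT2G32560 (-2.21) and LATE, a zinc finger protein (-2.21).

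Families that build and loosen the cell wall were lower in most of their called members. Of 20 xyloglucan endotransglucosylase/hydrolases, which cut and rejoin the xyloglucan that ties cellulose together, 16 fell and 1 rose, with a median log2 change of -0.79. XTH4 was at 33.6, 31.8, 34.2 and 30.9 CPM in controls and 10.3, 10.4, 11.2 and 11.1 CPM with ABA, a log2 change of -1.60. XTH33 fell by 2.16 and XTH5, the most abundant, by 0.45, while XTH25 rose by 0.59. Of 15 expansins, which loosen walls without cutting them, 8 fell and 2 rose, with a median of -0.47. EXPA1 was at 1809, 1825, 1928 and 1887 CPM in controls and 999, 977, 1143 and 999 CPM with ABA, lower in every ABA library, and EXPB1 fell by 1.34. EXPA2, the expansin of the germinating endosperm, was at 924, 840.2, 987 and 994 CPM in controls and 981, 927, 769 and 814 CPM with ABA, and its groups overlapped.

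Of 36 pectinesterases and their inhibitors 16 fell and 6 rose, with a median of -0.30. PME3 was at 521, 469.8, 436 and 473 CPM in controls and 202, 223, 245 and 234 CPM with ABA, a log2 change of -1.07. PMEI12, a pectinesterase inhibitor, fell by 3.67 from 9.66 ± 1.29 to 0.725 ± 0.27 CPM, and PME47 by 4.41 from only 1.04 ± 0.465 to 0.0467 ± 0.0553 CPM. PMEI6, an inhibitor known from seed mucilage, rose by 1.74 from 0.423 ± 0.168 to 1.53 ± 0.418 CPM. Of 38 polygalacturonases and pectate lyases 14 fell and 5 rose, with a median of -0.26. Of 63 extensins and arabinogalactan proteins 23 fell and 7 rose, with a median of -0.30. FLA2 was at 27.3, 29.4, 27.9 and 29.9 CPM in controls and 6.46, 11.2, 10.7 and 6.43 CPM with ABA, a log2 change of -1.76. Without ABA replicate 3 the count higher in this list was 3, without control replicate 3 it was 4, and without ABA replicate 1 it was 11. Class III peroxidases, which cross-link or loosen walls, fell in 13 of 15 genes tested and rose in 1, with a median of -0.96. Of 45 GDSL esterases and lipases 25 fell and 4 rose, with a median of -0.49. Among them AT5G45950 fell by 2.97 from 7.19 ± 0.535 to 0.887 ± 0.243 CPM, while AT5G14450, the most abundant, was not called. Of 24 cellulose synthase family genes 9 fell and 1 rose. ATCSLA09, a glucomannan synthase, fell by 2.23 from 4.52 ± 0.712 to 0.908 ± 0.227 CPM, and CESA1, a cellulose synthase of primary walls, was not called (-0.16).

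SAUR genes, small auxin-induced genes of elongating cells, fell in 12 of 22 tested and rose in 1, with a median of -0.60. SAUR78, the most abundant, was at 119, 107, 130.1 and 137 CPM in controls and 76.5, 62, 91.1 and 67.9 CPM with ABA. SAUR77 fell by 1.93 from 10.2 ± 0.682 to 2.65 ± 0.847 CPM, and AT3G12955 rose by 3.04 from 2.49 ± 1.09 to 20.3 ± 3.72 CPM. Of 20 Aux/IAA genes 6 fell and 1 rose, with IAA16 down by 1.19 from 57.7 ± 2.21 to 25.3 ± 2.01 CPM. The auxin importer AUX1 fell by 0.81 from 72.8 ± 3.87 to 41.5 ± 1.22 CPM and the root exporter EIR1 (PIN2) by 0.69, among 26 auxin response factors and carriers of which 6 fell and 3 rose.

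Of 60 nuclear genes of the photosystems and light-harvesting complexes 25 fell and 3 rose, with a median of -0.29. LHB1B2, a chlorophyll a/b-binding protein, fell by 1.46 from 8.69 ± 1.87 to 3.19 ± 0.756 CPM, and LHCA1 by 1.22. Of 23 chlorophyll synthesis genes 12 fell and 1 rose, with a median of -0.20. PORB, a light-dependent protochlorophyllide reductase, was at 77.3, 77.7, 88 and 89.2 CPM in controls and 26.8, 23.2, 23.2 and 23 CPM with ABA, a log2 change of -1.78. CH1, which makes chlorophyll b, rose by 1.01 from 21.1 ± 1.86 to 42.2 ± 3.44 CPM. Of 14 Calvin cycle genes 7 fell and 2 rose, and RBCS1A, the most abundant Rubisco small subunit gene, went from 1732 ± 120 to 1670 ± 130 CPM and was not called. Of 77 plastid-encoded genes 18 fell (23.4%, against the 18% of all genes) and none rose. This count fell to 2 when control replicate 1 was left out, to 8 without control replicate 4 and to 7 without ABA replicate 2. The plastid share of all counts was 0.672% to 1.04% in controls and 0.604% to 0.792% with ABA, so these ranges overlapped. Of 35 mitochondrion-encoded genes 9 fell (25.7%) and none rose, with 2 lower without control replicate 1, 5 without ABA replicate 2 and 15 without control replicate 3. The libraries were of poly(A) RNA, and how well they measure transcripts of plastids and mitochondria was not tested.

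Other hormones showed mixed changes. Of 12 genes of gibberellin synthesis and inactivation 5 rose and 3 fell. GA3OX1, which makes active gibberellin in germinating seeds, was at 18.7, 18.6, 20.6 and 22.5 CPM in controls and 9.2, 10.4, 12.2 and 9.41 CPM with ABA, every ABA library below every control. GA20OX3, of the step before, rose by 0.69 from 26.6 ± 2.45 to 43.3 ± 2.8 CPM. RGL2, the DELLA protein that represses germination, was at 242, 227, 223 and 236 CPM in controls and 333, 354, 293 and 335 CPM with ABA, and rose by 0.50. RGA1 fell by 0.43, RGL1 by 0.82, and the receptor gene GID1C rose by 0.52. GASA peptide genes, named for their response to gibberellin, included GASA3, up by 3.38 from 0.802 ± 0.286 to 8.61 ± 1.42 CPM, GASA6, down by 0.69 from 384 ± 49.8 to 238 ± 30.7 CPM, and GASA4, down by 0.45. Of 19 ethylene genes 5 rose and 8 fell. AT2G19590, an ACC oxidase that makes ethylene, was at 316, 273, 289 and 277 CPM in controls and 146, 126, 146 and 131 CPM with ABA, and ACS2, an ACC synthase, rose by 4.95 but only to 1.56 CPM. Of 16 jasmonate and wounding genes 5 fell and 2 rose, with TIFY7 down by 1.07. Of 12 type-A response regulators and cytokinin oxidases and related genes 3 fell and 2 rose, with LOG1, which releases active cytokinin, down by 1.12.

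Of 70 ERF and DREB factors 27 fell and 13 rose. DREB2G rose, at 8.89, 7.07, 9.03 and 8.77 CPM in controls and 61, 59.4, 62.3 and 52.3 CPM with ABA, and ERF6 fell by 1.77 from 3.61 ± 0.484 to 1.03 ± 0.273 CPM. Of 55 NAC factors 20 fell and 13 rose. NAC032 rose by 1.5 from 24.9 ± 0.566 to 70.2 ± 12 CPM, NAC089, a membrane-bound member, by 1.18 from 57.8 ± 6.22 to 131 ± 24.6 CPM and ATAF1 by 0.70 from 141 ± 4.82 to 229 ± 13 CPM, while NAC048 fell by 1.55. Of 38 MYB factors 14 fell and 2 rose, and of 65 bHLH factors 20 fell and 11 rose. PIL2 rose by 2.29 from 1.04 ± 0.543 to 5.26 ± 0.733 CPM, and HEC2 fell by 2.29 from 6.27 ± 1.02 to 1.36 ± 0.765 CPM. PIF1, the light-regulated repressor of germination, went from 115 ± 11.2 to 106 ± 16.6 CPM and was not called. Without ABA replicate 3 PIF1 was called lower, with a log2 change of -0.23 (edgeR adjusted p = 0.0175). Of 38 HD-Zip factors 10 fell and ATHB7, a known ABA-induced gene, alone rose, at 2.09, 1.33, 1.11 and 0.951 CPM in controls and 10.1, 9.31, 12.8 and 9.26 CPM with ABA. Without ABA replicate 3, 4 HD-Zip genes were called higher. Of 32 WRKY factors 11 fell and 6 rose. With at least 10 counts asked of all 8 libraries 6 WRKY genes were lower, so the excess of falls in this list depends on genes at low levels. WRKY18, the most abundant, fell by 0.84 from 58.6 ± 5.9 to 33.1 ± 8.22 CPM.

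Of 270 cytosolic ribosomal protein genes 45 fell and 8 rose, with a median of -0.10, shares of 16.7% and 2.96% against the 18% and 16.1% of all genes. The count lower was 75 with upper-quartile scaling, 27 with the 8 libraries fitted alone and 29 without ABA replicate 4. Of 48 cyclins and cyclin-dependent kinases 5 fell and none rose, with a median of 0.01. Their 10.4% lower is under the 18% of all genes. Of 24 tubulins and actins 8 fell (33.3%) and none rose. TUB5 was at 77.2, 71.6, 76.2 and 75.2 CPM in controls and 45.1, 39.2, 40.9 and 40.9 CPM with ABA. Of 33 DNA replication genes 7 fell (21.2%, against the 18% of all genes) and 1 rose (3.03%). The count lower was 4 without ABA replicate 1 and 11 with upper-quartile scaling. PCNA1, the sliding clamp of replication, fell by 0.57 from 24.1 ± 1.5 to 16.1 ± 1.52 CPM. Of 43 histone genes 15 fell (34.9%) and 7 rose, and 11 rose without control replicate 1. Among them AT1G08170, a histone H2B, rose by 3.69 from 0.968 ± 0.432 to 13.2 ± 1.72 CPM, and HIS1-3, a drought-inducible linker histone, by 1.43 from 6.16 ± 1.21 to 16.8 ± 2.14 CPM.

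Of 73 heat shock proteins 28 fell and 6 rose, with a median of -0.14, and 11 rose without control replicate 1. HSP15.4 was at 45.6, 36.3, 48 and 41.3 CPM in controls and 15.7, 14.5, 15.1 and 11.5 CPM with ABA, lower in all ABA libraries, and the most abundant, HSC70-1, fell by 0.25. Of 55 proteasome subunits 5 rose and 1 fell, and without ABA replicate 3 these numbers were 15 and 1. Of 17 genes that respond to low oxygen 9 fell and 3 rose. ADH1, alcohol dehydrogenase, rose by 0.31 from 671 ± 26.9 to 830.1 ± 129 CPM. Of 11 genes commonly used as references for normalisation none rose and 2 fell (18.2%, against the 18% of all genes). They were UBQ10, from 837 ± 36.9 to 614 ± 78.8 CPM, and UBC21, by 0.22. With upper-quartile scaling 5 of these reference genes were lower, so their count depends on the scaling.

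Markers of seed parts were compared because whole seeds were sampled. Of 5 endosperm markers 1 rose and none fell. MAN7, an endo-beta-mannanase that softens the endosperm, was at 38.6, 36.4, 42.9 and 41.1 CPM in controls and 118, 113, 128 and 104 CPM with ABA, while the EXPA2 values given above overlapped. Of 4 embryo root tip markers 3 fell: PLT2 by 0.70 and PLT1 by 0.45 were the 2 largest falls, and SCR went from 38.9 ± 4.98 to 42.6 ± 6.57 CPM and was not called. Of 3 embryo epidermis markers 1 fell and none rose. It was PDF1, by 0.41 from 264 ± 32.4 to 199 ± 26.2 CPM, and its groups overlapped. Of 2 seed coat markers 1 fell and none rose. It was MUM4, of seed coat mucilage, by 0.46 from 22.9 ± 0.883 to 16.5 ± 1.96 CPM. Whether the share of each tissue in the sampled RNA differed between groups was not tested.

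Each ABA library was set against the controls over genes chosen without it, those called at least 2-fold by the fit that left it out. Over the genes called higher in this way (463 to 473 by library), the median log2 difference of the left-out library from the control mean was 1.81, 1.76, 1.71 and 1.70 for ABA replicates 1 to 4. Over those called lower (528 to 598) it was -1.22, -1.35, -1.15 and -1.35, smallest in size in ABA replicate 3. ABA replicate 3 lay on the same side of the control mean as the other 3 ABA libraries in 467 of 473 genes called higher without it and in 588 of 598 called lower. The departure of this library was spread over many genes. Of the 11286 genes, 24 were at least 2-fold above the mean of the other ABA libraries and 10 at least 2-fold below, and over the remaining 11252 its SD was 0.306, against 0.142 to 0.171 for the other ABA libraries treated alike. The highest were SHP1, a MADS-box factor of fruit tissue, at 13.8, 8.9, 14.4 and 11.6 CPM in controls and 9.83, 7.74, 41.3 and 8.71 CPM with ABA, and AT2G30230, annotated as lumazine synthase, at 1181, 608, 1296 and 879 CPM in controls and 823, 605, 3018 and 717 CPM with ABA. TPPI, a trehalose-phosphate phosphatase, was at 2108, 1166, 2109 and 1558 CPM in controls and 1491, 1190, 5304 and 1264 CPM with ABA. In all 3 genes ABA replicate 3 was far above every other library, and the 2 higher controls were replicates 1 and 3. AT2G27380, the extensin-like EPR1 of the endosperm, was at 140.1, 201, 249.8 and 223 CPM in controls and 218, 213, 653 and 217 CPM with ABA, and EXT3, an extensin, at 104, 146, 138 and 140.4 CPM in controls and 124, 138, 322 and 144 CPM with ABA. MBS1, a zinc finger protein, was listed at 0 in ABA replicate 3 and was at 43.3, 44.5, 43.5 and 43.5 CPM in controls and 43.6, 43.8 and 39.2 CPM in ABA replicates 1, 2 and 4. Replicate 3 was also highest of the ABA libraries in the list medians of LEA proteins (0.386 above the mean of the other 3 on the log2 scale), extensins and arabinogalactan proteins (0.326) and regulators of seed maturation (0.319), and lowest in mitochondrion-encoded genes (-0.413), hexose and polyol transporters (-0.352) and aquaporins (-0.313). Control replicate 1 departed as far from its own group in LEA proteins (0.401).

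Over the same 17083 genes, leaving ABA replicate 3 out kept 5306 of the 5824 calls in the same direction. It lost 518, gained 1058 and turned none. Pairs of ABA libraries that include replicate 3 had a chi-square per gene of 20 to 23 on their counts, against 2.51 to 3.45 for the other ABA pairs and 1.83 to 8.48 for pairs of controls, where 1 is sampling noise alone. No pair agreed within sampling noise. This cannot show what separated the libraries, since separate preparations of the same RNA could also differ by more than sampling noise. All 8 libraries were counted as separate samples because the labels call them biological replicates.

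**Figure D5:**
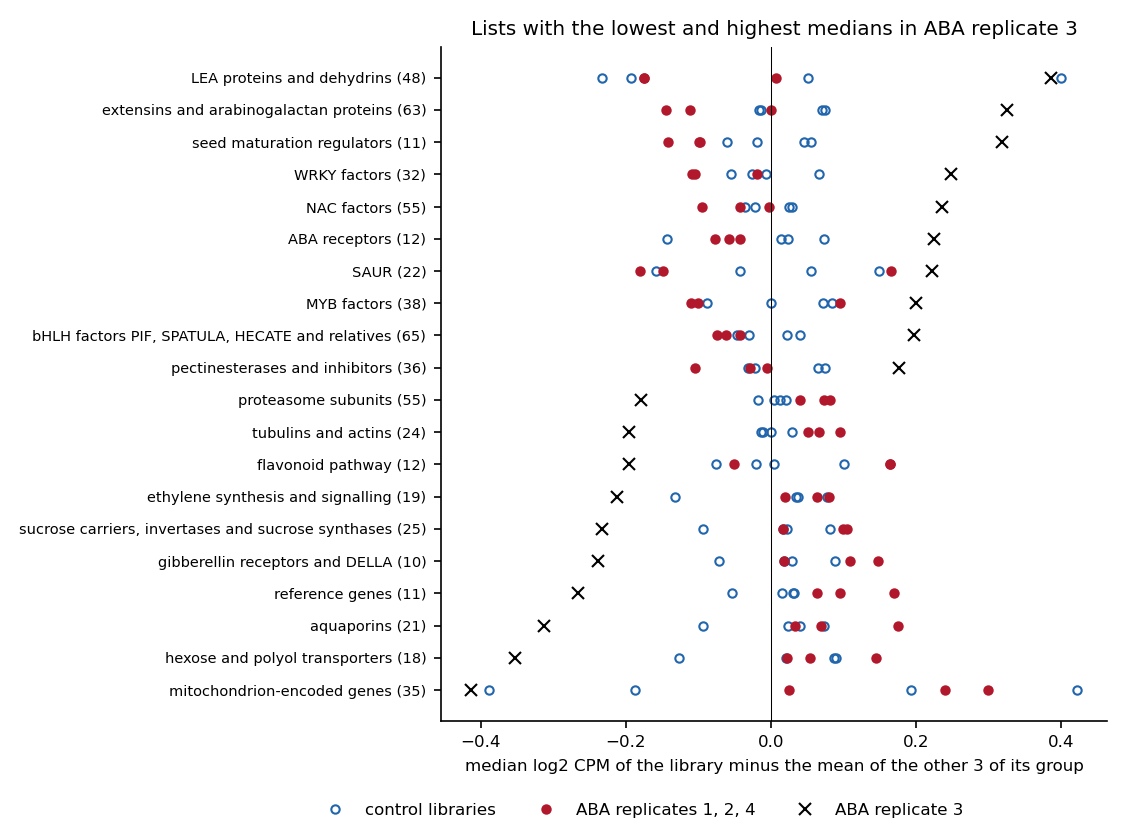
Median log2 CPM of the members of a gene list in each library minus the mean of the other 3 libraries of its group, for the 10 lists highest and the 10 lowest in ABA replicate 3, with list sizes in brackets. Open circles are controls, filled circles ABA replicates 1, 2 and 4, and the cross is ABA replicate 3. The cross lies at 0.386 for LEA proteins and at -0.413 for mitochondrion-encoded genes, where control libraries depart by about as much.

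Leaving out 1 library ended the call of some named genes whose change was small. ABF2 (log2 change between 0.41 and 0.50) lost its call without any 1 library except ABA replicate 4. SNRK2.3 (-0.21 to -0.14) lost its call without control replicate 3 or 4 or ABA replicate 1, 2 or 4, and XTH25 (0.50 to 0.94) without control replicate 1, 2 or 4 or ABA replicate 1 or 4. SESA3 (-0.76 to -0.43) lost it without control replicate 1 or 3 or ABA replicate 1 or 2, and ATHB12 (-0.66 to -0.39) without control replicate 1 or 4 or ABA replicate 1 or 2. GBF4 (0.25 to 0.44) depended on control replicates 2 and 3, UBC21 (-0.24 to -0.17) on control replicate 1 and ABA replicate 3, and WRKY2 (-0.49 to -0.32) on control replicate 4 and ABA replicates 2 and 3.

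Some named genes carry a limit from how reads were assigned. Estimated counts with decimals, which whole reads alone do not give, were found in 6 or more of the 8 libraries for 15 of the 189 genes named: AT2G30230, AT5G14450, EXPA1, GASA6, HSC70-1, MBS1, MFT, PIL2, PYL7, RBCS1A, SHP1, TIP3;1, TPPI, UBC21 and UBQ10. A tested gene at 10% or more of their level overlaps 24 of the named genes: ABCG30 (AT4G15233), ABF1 (AT1G49730), ABF3 (AT4G34020), ABF4 (AT3G19300), AREB3 (AT3G56840), AT5G01300 (AT5G01290), BETA-TIP (AT1G17820), BMY3 (AT5G18680), CESA1 (AT4G32400), EEL (AT2G41060), LHB1B2 (AT2G34410), MAN7 (AT5G66470), MBS1 (AT3G02780), MFT (AT1G18090), MUM4 (AT1G53490), P5CS1 (AT2G39795), PIL2 (AT3G62080), PORB (AT4G27450), PPDK (AT4G15520), PYL7 (AT4G01030), SHP1 (AT3G58790), TIP3;1 (AT1G73200), UBC21 (AT5G25770) and WRKY2 (AT5G56280). Some of these neighbours stood far above the named gene. AT4G27450, beside PORB, averaged 1777 CPM in controls and 2389 CPM with ABA, and AT1G18090, beside MFT, 21.6 and 15.7 CPM. Reads of a gene and of such a neighbour may have been shared, so the levels of both sets are less certain.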

How the data were processed

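RNA of germinating wild-type seeds was sequenced as paired-end poly(A) libraries on a HiSeq 2500, per the labels' protocols. The authors deposited a table of estimated counts per gene for the series, and per library a column headed TPM per the file headers. The deposited TPM columns do not have the fixed sum of TPM, so their values were treated as a signal of unstated scaling, and no result below rests on them. Trimmomatic 0.38, kallisto 0.44.0 and sleuth are named in the submitters' processing notes without roles; genome build, annotation and strand setting are not given in the sources used here. Another 16 columns of the count table belong to samples not analysed here.

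Estimated counts, some of them decimal, were rounded to whole numbers. Genes were kept by edgeR's filterByExpr (version 4.0.16 in R 4.3.3, minimum count 10), which left 17083 of 27655. TMM scaling, 4 group means over all 16 libraries and the quasi-likelihood F-test gave the contrast of ABA minus control, with Benjamini-Hochberg adjustment over all genes tested. The labels state no model. Values given as mean ± SD have n = 4 libraries a group. The biological coefficient of variation was 7.88%. On simulated counts for 17083 genes, the test recovered 94% of 2-fold and 100% of 4-fold changes in this contrast, with 15 false calls. The changes were placed in 100 genes for each fold, all above a minimum control level. Counts were drawn independently for each gene and library with the fitted spread. No simulated library departed as a whole as ABA replicate 3 did, so these figures do not cover such a departure. Alternatives were RLE and upper-quartile scaling, other filters, DESeq2 1.42.0, a robust fit, the 8 libraries alone, the replicate number as a block and leaving out each library.

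Named genes were the 12 largest rises and 12 largest falls among called genes whose groups do not overlap and whose higher group has at least 10 CPM; in each list the called members with the 2 largest rises and falls and the most abundant one; every core ABA pathway gene; and the 10 genes furthest above and below the other ABA libraries in ABA replicate 3. RAB18, CLO4, HB5, RD22, ABI3 and the 6 lesser falls among LEA genes (AT2G41990, AT2G03850, AT5G42860, AT4G38410, ERD10, AT2G46140) fall outside this rule and were chosen after their values were seen, as were the motif ACCGAC, the promoter windows other than the first and the sets of genes called without each ABA library. The comparison, the gene lists and these rules were chosen with earlier results of these data known. Lists are described by counts and medians without a set test. Promoters and gene overlaps were read from the RefSeq annotation of TAIR10.1 by gene identifier.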

Additional observations from a re-analysis of the deposited data

Results flagged for a closer look

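Each of the 189 genes named was looked at for a library far from the other 3 of its group, in controls and with ABA (378 groups). In 32 groups the gap from 1 library to the nearest of the others took more of the group's whole range than Dixon's 95% critical value for 4 samples allows, and chance gives this in about 1 in 20 groups. Of these gaps 17 were in ABA replicate 3, and some of those genes were named because that library departs in them.

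ABA replicate 1 was far above the others in PORB at 26.8 CPM (others 23 to 23.2). ABA replicate 3 was far above the others in ABI3 at 474 CPM (others 309 to 324), AT2G27380 at 653 CPM (others 213 to 218), AT2G30230 at 3018 CPM (others 605 to 823) and AT3G48460 at 3.46 CPM (others 2.12 to 2.34). Again in ABA replicate 3, the value was far above the others for AT3G53040 at 1253 CPM (others 667 to 686), EXPA1 at 1143 CPM (others 977 to 999), EXT3 at 322 CPM (others 124 to 144) and PIF1 at 131 CPM (others 95.7 to 99.9). ABA replicate 3 was likewise far above the others in PYL4 at 97.9 CPM (others 70.5 to 75), PYR1 at 359 CPM (others 229 to 239), SHP1 at 41.3 CPM (others 7.74 to 9.83) and TIFY7 at 5.41 CPM (others 3.78 to 4). Values far above the others also stood in ABA replicate 3 for TPPI at 5304 CPM (others 1190 to 1491). ABA replicate 3 was far below the others in MBS1 at 0 CPM (others 39.2 to 43.8), PCNA1 at 13.9 CPM (others 16.6 to 17), SDP1 at 77.2 CPM (others 99.3 to 102) and SUC1 at 153 CPM (others 188 to 195). Control replicate 1 was far above the others in AHG1 at 41.2 CPM (others 26.8 to 28.1), ERD10 at 23.8 CPM (others 11.9 to 12.8), GAMMA-TIP at 4.48 CPM (others 1.41 to 1.9) and PMEI6 at 0.672 CPM (others 0.317 to 0.37). Again in control replicate 1, the value was far above the others for RD29B at 23.6 CPM (others 17.4 to 18.2). Control replicate 1 was far below the others in ABI3 at 182 CPM (others 233 to 236). Control replicate 2 was far below the others in ABA1 at 23.5 CPM (others 25 to 25.3), ABI1 at 89.4 CPM (others 95.6 to 96.8) and DREB2G at 7.07 CPM (others 8.77 to 9.03). Control replicate 3 was far above the others in XTH25 at 4.07 CPM (others 1.8 to 2.17). Control replicate 4 was far above the others in WRKY2 at 8.98 CPM (others 6.37 to 6.73). Control replicate 4 was far below the others in ADH1 at 631 CPM (others 681 to 687), TIP3;1 at 2.11 CPM (others 4.78 to 5.03) and XTH5 at 264 CPM (others 288 to 289.6).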

How the results depend on the processing

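The 4 counts of called genes stayed within 1.5 times their value under each alternative but the one that asks for 10 counts in all 8 libraries, where 313 genes were at least 2-fold lower instead of 569, since fewer low genes are tested there. Upper-quartile scaling called 2036 genes higher and 3803 lower, DESeq2 2810 and 2870, and the 8 libraries alone 2069 and 2418. Leaving out 1 library gave 2466 to 3025 genes higher and 2628 to 3386 lower, with 463 to 494 and 548 to 627 at 2-fold or more. The share of the 461 genes with ACGTG was 63.3% in the window described, 56.2% in the 250 bases before the start alone, 50.5% from 100 before to 50 after, 69.4% from 500 before to 50 after and 80.3% from 1000 before to 50 after. For genes not called these 4 shares were 20.8%, 15.7%, 36.4% and 54.7%; these windows were chosen after seeing the data. The departure of ABA replicate 3 had an SD of 0.382 over genes of at least 1 CPM and 0.319 over those of at least 50 CPM.

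Same-numbered control and ABA libraries did not visibly deviate together (correlations 0.097, 0.11, -0.007 and 0.046). Libraries of unlike number gave -0.18 to 0.19, so these values cannot show whether the numbers pair the libraries. The main fit did not pair them. With the replicate number as a block 2766 genes were higher and 3108 lower, 464 and 577 at 2-fold or more, and 5658 of the 5824 calls remained. Of the 381 genes that the naming rules give, the filter of 10 counts in all 8 libraries tested 317 and the 8 libraries alone 371. Genes not tested in a setting were not counted as lost there. Among those tested, the call was lost in 0 to 23 by setting. Small changes lost it most often, such as those of ABF2 (10 of the 16 settings), XTH25, SESA3 and SNRK2.3 (7 each). Among genes called in the main fit or in the setting, a sign turned in 1, AT5G49640. It was at -0.02 and not called in the main fit, and at 0.22 without ABA replicate 3. With 1 library left out it was between -0.16 and 0.22, and the cause was not tested. Genes called in neither fit were not counted. Some of them turned without ABA replicate 3, such as SHP1 (0.38 to -0.47) and TPPI (0.41 to -0.40). With 4 libraries a group, changes well under 2-fold in genes near the filter are the least certain.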
